A study of Mus musculus with 12 samples.

Results

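The genes that make, bind, clear and sense retinoic acid were followed in mouse neurospheres with and without Ythdf2, the reader protein that binds m6A-modified mRNA and promotes its decay. The set holds 10 genes, picked by symbol from the 24525 genes of the count tables: the receptor genes Rara, Rarb, Rarg and Rxra, the retinaldehyde dehydrogenase genes Aldh1a1, Aldh1a2 and Aldh1a3, the binding protein genes Crabp1 and Crabp2, and the clearance enzyme gene Cyp26b1. Neurospheres are floating clusters of neural stem and progenitor cells (NSPCs), here from the forebrain of E14.5 C57BL/6 embryos at passage 1. The medium of both genotypes held EGF at 20 ng/ml, bFGF at 10 ng/ml, N2 and a B27 supplement from which vitamin A, the precursor of retinoic acid, was left out. No other treatment was given. The Ythdf2-/- cells carry a germline deletion of the 5′ UTR and exon 1, made by crossing a LoxP allele with a ubiquitous Cre, so the deletion was not limited to a cell type. RNA-seq was available for 3 wild-type and 3 Ythdf2-/- cultures, which are the input libraries of an m6A immunoprecipitation. The 6 precipitated samples are not analysed here. The cultures are called biological replicates, without a statement that each came from its own embryo.

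Retinoic acid is made from vitamin A (retinol) in a pair of oxidation steps. Retinol dehydrogenases such as Rdh10 form retinaldehyde, and the Aldh1a enzymes oxidise it irreversibly to retinoic acid. The acid is carried in the cytosol by Crabp1 and Crabp2, is broken down by Cyp26 enzymes, and in the nucleus binds the receptors RARα, β and γ (Rara, Rarb, Rarg), which act as dimers with RXRs such as RXRα (Rxra). In the developing brain much of it comes from the meninges, where Aldh1a2 is the main enzyme, and the pathway is known for promoting neuronal differentiation of progenitors.

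Rarb and Cyp26a1 are themselves well-known retinoic acid targets, and the letters that RAR-RXR dimers are known to bind were visible in their promoters. The search covered 300 bases around each annotated start (RefSeq, GRCm38.p6) on both strands for half-sites of the type bound by these receptors. The forms searched were the consensus AGGTCA, its variant with a leading guanine GGGTCA, the variant known from the Rarb element AGTTCA, and the same with a leading guanine GGTTCA. A repeat is any of them followed by any of them in the same direction after 1, 2 or 5 bases. A repeat with a spacer of 5 was present in 32 of 32851 windows (0.0974%), with a spacer of 2 in 88 (0.268%) and with a spacer of 1 in 73 (0.222%). Of the 10 genes, 8 had a window among those searched, 14 windows in all, and the Rarb window was the only one of these to hold a repeat. The forms searched include the variant known from the Rarb element. The match in Rarb was thus built into the search and is shown as a description. The Rarb repeat spans the bases 53 to 37 before a start inside the gene, on the minus strand, and is shown with 6 bases on either side (chr14:16575507-16575535). The Cyp26a1 repeat spans the bases 32 to 16 before the start, reads from the strand opposite to the gene and is shown with the same flanks (chr19:37697770-37697798). Both are printed 5′ to 3′ in the direction of the repeat, with the half-sites in capitals.
Rarb: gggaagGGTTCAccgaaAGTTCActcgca
Cyp26a1: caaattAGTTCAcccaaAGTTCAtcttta
The repeats were identical at 15 of their 17 positions. The expression of the genes differed: Rarb was read in all 6 libraries, whereas Cyp26a1 had 0 reads in each of them.

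The libraries held 11029827 to 13185778 counted reads. Levels are given as CPM, the read count of a gene scaled to the library total with TMM factors, and 13112 genes passed the filter on low counts and were tested with edgeR's quasi-likelihood test. Ythdf2 was at 71.8, 73.3 and 91.3 CPM in the wild-type libraries and at 11.7, 14.6 and 11.1 in the Ythdf2-/- libraries. Its log2 fold change was -2.66 (SE 0.183, adjusted p = 0.0547 by edgeR), over reads that include exons outside the deleted stretch, and -2.54 (adjusted p = 0.0203 by edgeR) without wild-type replicate 3. Wild-type replicate 3 stood apart from the other 5 libraries. Its mean Spearman correlation with them was 0.900 against 0.962 to 0.970 for each of the others, and it lay at 91.0 on a first principal component (74.2% of the variance) on which the others lay between -30.6 and -6.04. The progenitor markers, all 8 of which were tested, summed to 5255 CPM in it and to 7906 to 9137 elsewhere. Of these, Sox2, Pax6, Hes1 and Hes5 were highest in it, with Hes5 at 218 CPM against 18.2 to 114, while Vim, Nes and Fabp7 were lowest. The 5 astrocyte markers summed to 6041 against 942 to 2200, and the 7 oligodendrocyte lineage markers to 4103 against 1634 to 2017. Marker sums of the neuron list were 1852 against 1057 to 1284. The 6 meningeal fibroblast markers summed to 14.6 to 41.6 CPM in wild-type and 11.4 to 23.6 CPM in Ythdf2-/- libraries. Nearly all of this was Foxc1, at 9.23 to 20.8 CPM, and Pdgfrb, at 31.7 CPM in wild-type replicate 3 and at most 3.49 CPM elsewhere, while Col1a1, Col1a2, Dcn and Lum were at or below 0.684 CPM. The 4 choroid plexus markers summed to 0.852 to 5.30 CPM, the 4 endothelial markers to 0.148 to 1.45 CPM with Cldn5 at 0, and the 4 microglial markers to 0.723 to 1.45 CPM with C1qa at 0. Reads on Y-linked genes were present in wild-type replicates 1 and 2 and Ythdf2-/- replicate 3, and not in the other 3 libraries. The fit was therefore repeated without wild-type replicate 3. In bulk RNA, fewer cells of a type and less RNA per cell cannot be told apart.

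No gene of the set was called between genotypes. Of the 10, 6 passed the filter (Rara, Rarb, Rarg, Rxra, Aldh1a1 and Cyp26b1), and 0 of these 6 had an adjusted p under 0.05 (edgeR with Benjamini-Hochberg adjustment), as did 0% of all genes tested. At an unadjusted p under 0.05 there were again 0 of 6, where all genes gave 3.63%, and DESeq2 also called 0 of the 6, beside 0.236% of all genes. The libraries of the genotypes overlapped for each of the 10 genes, where 10.2% of all tested genes did not overlap. Overlap does not show that the levels were equal. With 3 libraries against 3, an exact permutation test cannot go below p = 0.1.

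**Figure D1:**
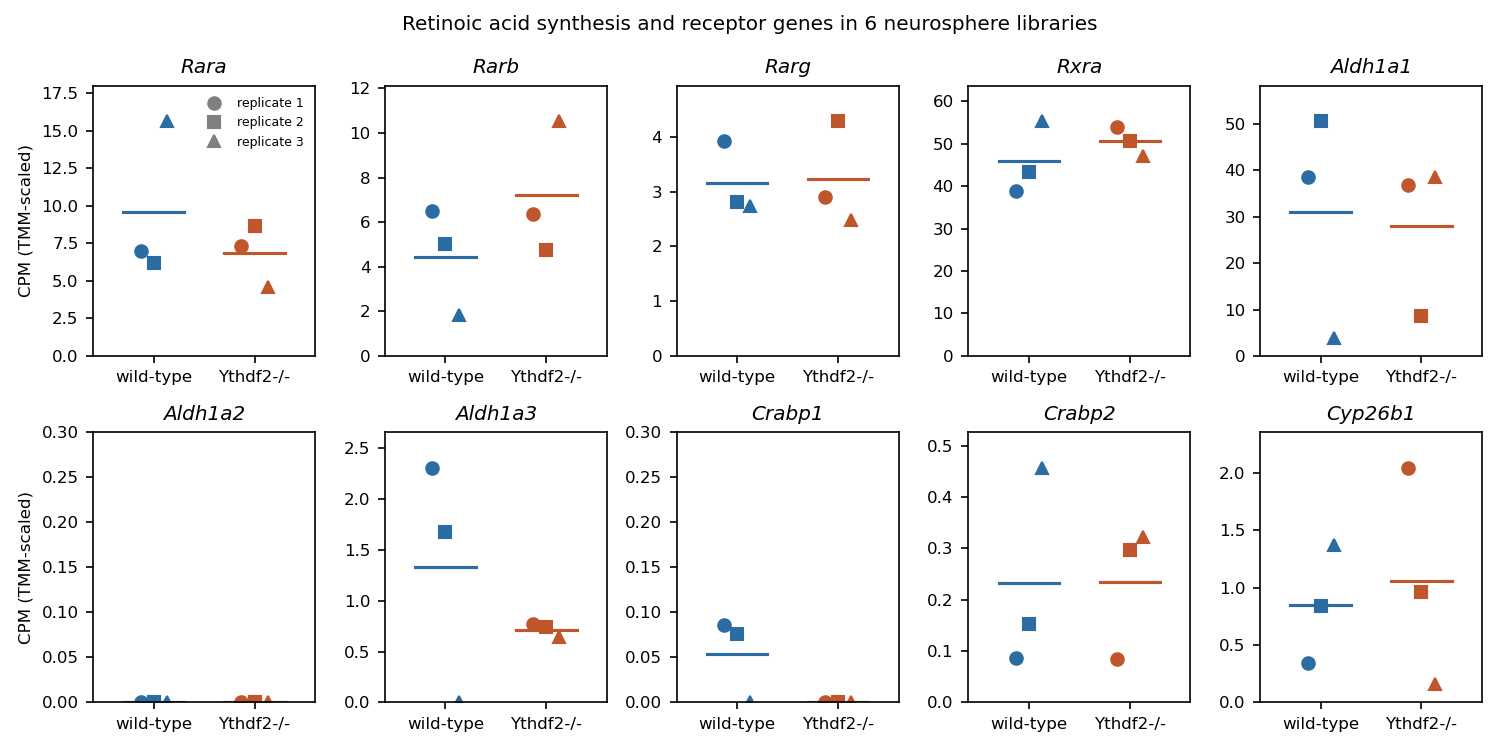
CPM (TMM-scaled, linear axes from 0, a separate scale for each gene) of the 10 genes in the 3 wild-type (blue) and 3 Ythdf2-/- (orange) libraries, with symbols for replicate number and bars for group means. Wild-type replicate 3 was the highest library for Rara, at 15.6, and the lowest for Rarb, at 1.83, and for Aldh1a1, at 3.93.

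Among the synthesis enzymes, nearly all reads fell on Aldh1a1, the retinaldehyde dehydrogenase also known from dopaminergic neurons and the dorsal retina (gene at chr19:20492583-20643463, plus strand). Its level was 38.6, 50.6 and 3.93 CPM in the wild-type libraries and 36.9, 8.65 and 38.6 in the Ythdf2-/- libraries. Each genotype thus had 2 libraries at a similar high level and 1 far below them. The means were 31.0 ± 24.2 (SD, n = 3) in wild-type and 28.0 ± 16.8 (SD, n = 3) in Ythdf2-/- cells, and the log2 fold change was -0.15 (SE 0.918, adjusted p = 0.999 by edgeR). Without wild-type replicate 3 it was -0.67 (SE 0.574, adjusted p = 0.586 by edgeR), and without Ythdf2-/- replicate 2 it was 0.28, so the sign depended on which low library was kept. It was also above 0 without wild-type replicate 1 or 2. Both low libraries lacked Y-linked reads, but Ythdf2-/- replicate 1, which also lacked them, was at the high level. The sum of the astrocyte markers was highest in wild-type replicate 3, at 6041 CPM, and was 1015 CPM in Ythdf2-/- replicate 2, near the lowest of the 6. Of these markers, S100b and Aldh1l1 were not highest in wild-type replicate 3. The part of these differences in the Aldh1a1 values was not tested.

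A pair of genes could share reads with Aldh1a1. Aldh1a7 is its close paralog, and how reads that map to several genes were counted is not given in the sources used here. Aldh1a7 had 6.84, 6.10 and 0.64 CPM in wild-type and 11.7, 2.22 and 9.97 in Ythdf2-/- libraries. It was thus low in the same 2 libraries as Aldh1a1. E030003E18Rik, which overlaps 339 exonic bases of Aldh1a1 on the same strand, had 4.10, 5.49 and 0.548 CPM against 5.37, 0.74 and 2.57. It too was lowest in wild-type replicate 3 and Ythdf2-/- replicate 2. Both genes were looked up after the values of Aldh1a1 had been seen, and their values are not independent of it.

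Aldh1a2, the main retinoic acid producer of the meninges and paraxial mesoderm (chr9:71215789-71296243), had 0 reads in all 6 libraries, 0 of 73421673 counted reads, which allows a level of up to 0.0409 CPM over the 6 together. Floors of this kind cover counting error only. Aldh1a3, the enzyme of the ventral retina and lateral ganglionic eminence (chr7:66390892-66427477, minus strand), had 2.31, 1.68 and 0 CPM in wild-type and 0.767, 0.74 and 0.643 CPM in Ythdf2-/- libraries. The counts behind these values were 27, 22 and 0 against 9, 10 and 8 reads. Wild-type replicates 1 and 2 were above every Ythdf2-/- library, and wild-type replicate 3 was below every one, where a count of 0 allows up to 0.272 CPM. The gene did not pass the filter with all libraries. With no filter its log2 fold change was -0.89 (unadjusted p = 0.402, edgeR). It passed the filter once wild-type replicate 3 or any 1 Ythdf2-/- library was left out, but then through wild-type replicates 1 and 2, the libraries in which it was highest. Its log2 fold changes in those fits, -1.46 without wild-type replicate 3 and -0.94 to -0.82 without a Ythdf2-/- library, therefore follow in part from how the gene entered and are given as a description.

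The cytosolic binding proteins were close to absent. Crabp1 (chr9:54764748-54773110) had 1 read in each of wild-type replicates 1 and 2 and 0 in the other 4 libraries. Crabp2 (chr3:87948693-87953372), which delivers the acid to nuclear receptors, had 1, 2 and 5 reads in wild-type and 1, 4 and 4 reads in Ythdf2-/- libraries. Neither gene passed the filter, and at this depth a difference between genotypes was not detectable for them. Fabp5, the fatty acid binding protein that can also carry retinoic acid, had far more reads, with 816, 873 and 1163 CPM in wild-type and 781, 548 and 677 in Ythdf2-/- libraries. All 3 Ythdf2-/- libraries were below all 3 wild-type libraries. Its log2 fold change was -0.51 (SE 0.223, unadjusted p = 0.0606, adjusted p = 0.999 by edgeR), and -0.34 without wild-type replicate 3.

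Cyp26b1, the cytochrome P450 that inactivates retinoic acid (chr6:84571414-84593908, minus strand), was read at low level and with a wide spread. It had 0.342, 0.839 and 1.37 CPM in wild-type libraries and 2.04, 0.962 and 0.161 CPM in Ythdf2-/- libraries, from 2 to 24 reads per library. The Ythdf2-/- libraries included both the highest and the lowest of the 6. The log2 fold change was 0.31 (SE 0.870, adjusted p = 0.999 by edgeR), and 0.80 (SE 0.950) without wild-type replicate 3. The other clearance enzymes, Cyp26a1 and Cyp26c1, had 0 reads in all 6 libraries.

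The receptor genes of the set were read in each library. Among them Rxra, the common dimer partner (chr2:27676445-27763319), was the highest per length in each library. It had 38.8, 43.4 and 55.3 CPM in wild-type and 53.9, 50.5 and 47.1 in Ythdf2-/- libraries. Wild-type replicates 1 and 2 were the lowest of the 6, and wild-type replicate 3 was the highest. The means were 45.8 ± 8.50 (SD, n = 3) and 50.5 ± 3.41 (SD, n = 3), a log2 fold change of 0.14 (SE 0.168, adjusted p = 0.999 by edgeR). Without wild-type replicate 3 the log2 fold change was 0.30 (SE 0.112, unadjusted p = 0.0361, adjusted p = 0.271 by edgeR), in the comparison in which 16.6% of all genes had an unadjusted p under 0.05. With sample quality weights in limma, which weighted that library at 0.0901, it was 0.32 (unadjusted p = 0.00878, adjusted p = 0.0761), where 29.9% of all genes had an unadjusted p under 0.05. That library decides whether the groups overlap. Rxra kept its sign in 17 of 17 alternatives, but these reuse the same libraries and are not independent. The alternative on deposited FPKM rests on 3 expected counts in all.

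Rara (chr11:98927800-98974942), the broadly expressed RAR, had 7.01, 6.18 and 15.6 CPM in wild-type and 7.33, 8.65 and 4.58 CPM in Ythdf2-/- libraries. Wild-type replicate 3 was well above the other 5. The log2 fold change was -0.48 (SE 0.445, adjusted p = 0.999 by edgeR), and without wild-type replicate 3 it was 0.06 (SE 0.307), so the lower mean in Ythdf2-/- cells rested on that library in the raw counts. An annotated gene on the opposite strand, Gm46294, overlaps 246 exonic bases of Rara. The library kit kept strand, but the strand setting of the counting is not given in the sources used here.

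Rarb (chr14:16430839-17082331, minus strand), the RAR that carries the repeat shown above, went the other way. It had 6.50, 5.03 and 1.83 CPM in wild-type and 6.39, 4.73 and 10.5 CPM in Ythdf2-/- libraries. Wild-type replicate 3 was the lowest and Ythdf2-/- replicate 3 the highest, and the 4 remaining libraries ran from 4.73 to 6.50. The log2 fold change was 0.69 (SE 0.528, adjusted p = 0.999 by edgeR), 0.32 (SE 0.376) without wild-type replicate 3 and also 0.32 without Ythdf2-/- replicate 3. Its sign was the same in 19 of 19 alternatives, and its lowest adjusted p over them was 0.307 by edgeR. These alternatives reuse the same libraries and are not independent. Rarg (chr15:102234938-102257522, minus strand), known from skin and cartilage, varied less than Rara or Rarb, with 3.93, 2.82 and 2.74 CPM against 2.90, 4.29 and 2.49. Its log2 fold change was 0.03 (SE 0.330, adjusted p = 0.999 by edgeR).

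Within each genotype, Rara was lower and Rarb higher in the libraries with Y-linked reads. Over all 6 libraries Rarb did not separate by them. Wild-type replicate 2 had such reads with Rarb at 5.03 CPM, and Ythdf2-/- replicate 1 lacked them with Rarb at 6.39 CPM. With a term for the presence of such reads in the edgeR fit, the log2 fold change of Rara was -0.75 (unadjusted p = 0.0147) and that of Rarb was 1.19 (unadjusted p = 0.00872), with adjusted p of 0.337 and 0.307. In that fit 11.0% of all tested genes had an unadjusted p under 0.05. Wild-type replicate 3 was the only wild-type library without such reads, and within the wild-type group the absence of these reads and the standing apart of that library cannot be told apart. Ythdf2-/- replicate 3 was the only Ythdf2-/- library with such reads, and it was also the highest for Rarb and the lowest for Rara.

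**Figure D2:**
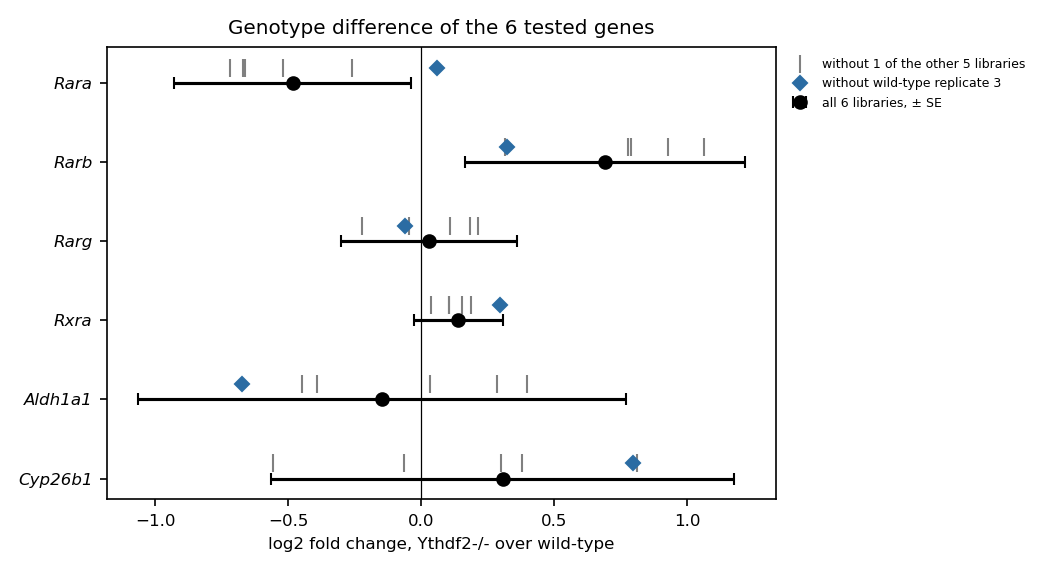
Log2 fold change (Ythdf2-/- over wild-type) of the 6 tested genes from edgeR with all 6 libraries (black points, bars ± SE), without wild-type replicate 3 (blue diamonds) and without each of the other 5 libraries in turn (grey ticks). Rara moved from -0.48 to 0.06 without wild-type replicate 3, and Aldh1a1 and Cyp26b1 had values on both sides of 0.

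The 3 RAR genes differed in how they shared a similar total. Per length (CPM divided by the exonic length in kilobases, written RPKM and computed from the counts), the 3 genes summed to 4.49, 3.59 and 4.89 in wild-type and 4.23, 4.51 and 4.58 in Ythdf2-/- libraries. The share of Rarb in that sum was 38.3%, 37.2% and 9.89% in wild-type and 40.0%, 27.8% and 60.9% in Ythdf2-/- libraries. The share of Rara was 36.0%, 39.7% and 73.6% against 39.9%, 44.2% and 23.1%. Rara and Rarb thus had near-equal shares in 3 of the libraries, Rara took most of the sum in wild-type replicate 3, and Rarb took most of it in Ythdf2-/- replicate 3. Rarg kept 16.0% to 28.0% throughout. The shares of the genotypes overlapped for each of the 3 genes, and because shares of 1 sum are tied to each other, the opposite order of Rara and Rarb is in part arithmetic.

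**Figure D3:**
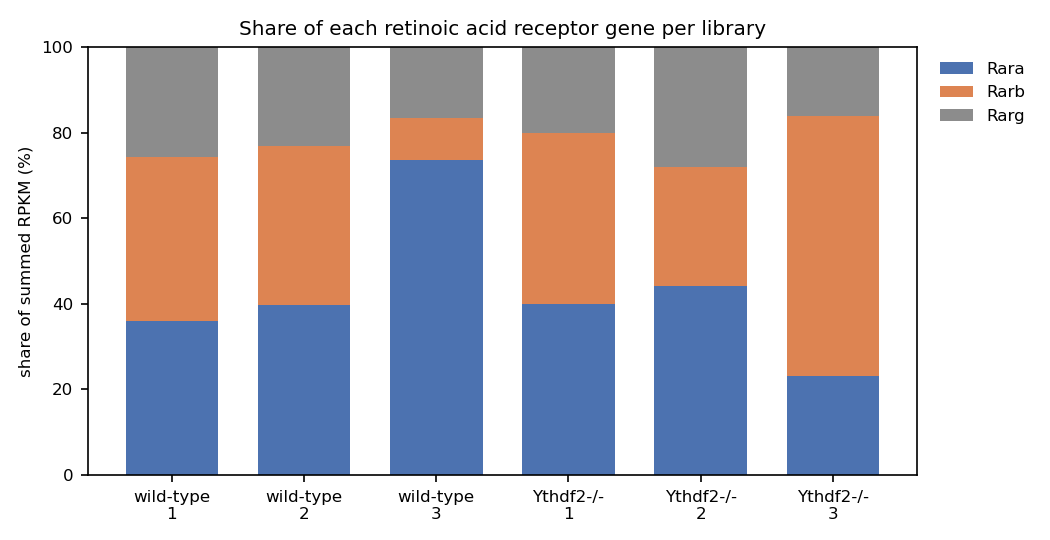
Share (%) of Rara, Rarb and Rarg in their summed RPKM in each of the 6 libraries, as stacked bars from 0 to 100. Rarb held 9.89% in wild-type replicate 3 and 60.9% in Ythdf2-/- replicate 3.

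On the per-length scale, mean RPKM over the 6 libraries placed Aldh1a1 first at 9.78, then Rxra at 8.81, Rara at 1.90, Rarb at 1.54, Rarg at 0.940, Aldh1a3 at 0.301, Crabp2 at 0.259, Cyp26b1 at 0.197, Crabp1 at 0.0336 and Aldh1a2 at 0. Only Rxra over Rara and Rarg over Aldh1a3 were neighbours whose ranges over the libraries did not meet. Aldh1a1 was above Rxra in 4 of 6 libraries, and Rara above Rarb in 3 of 6. The median of the 12700 tested genes with a length was 10.1 RPKM, so Aldh1a1 stood above 49.2% of them, Rxra above 46.4%, Rara above 17.3% and Rarg above 10.1%.

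**Figure D4:**
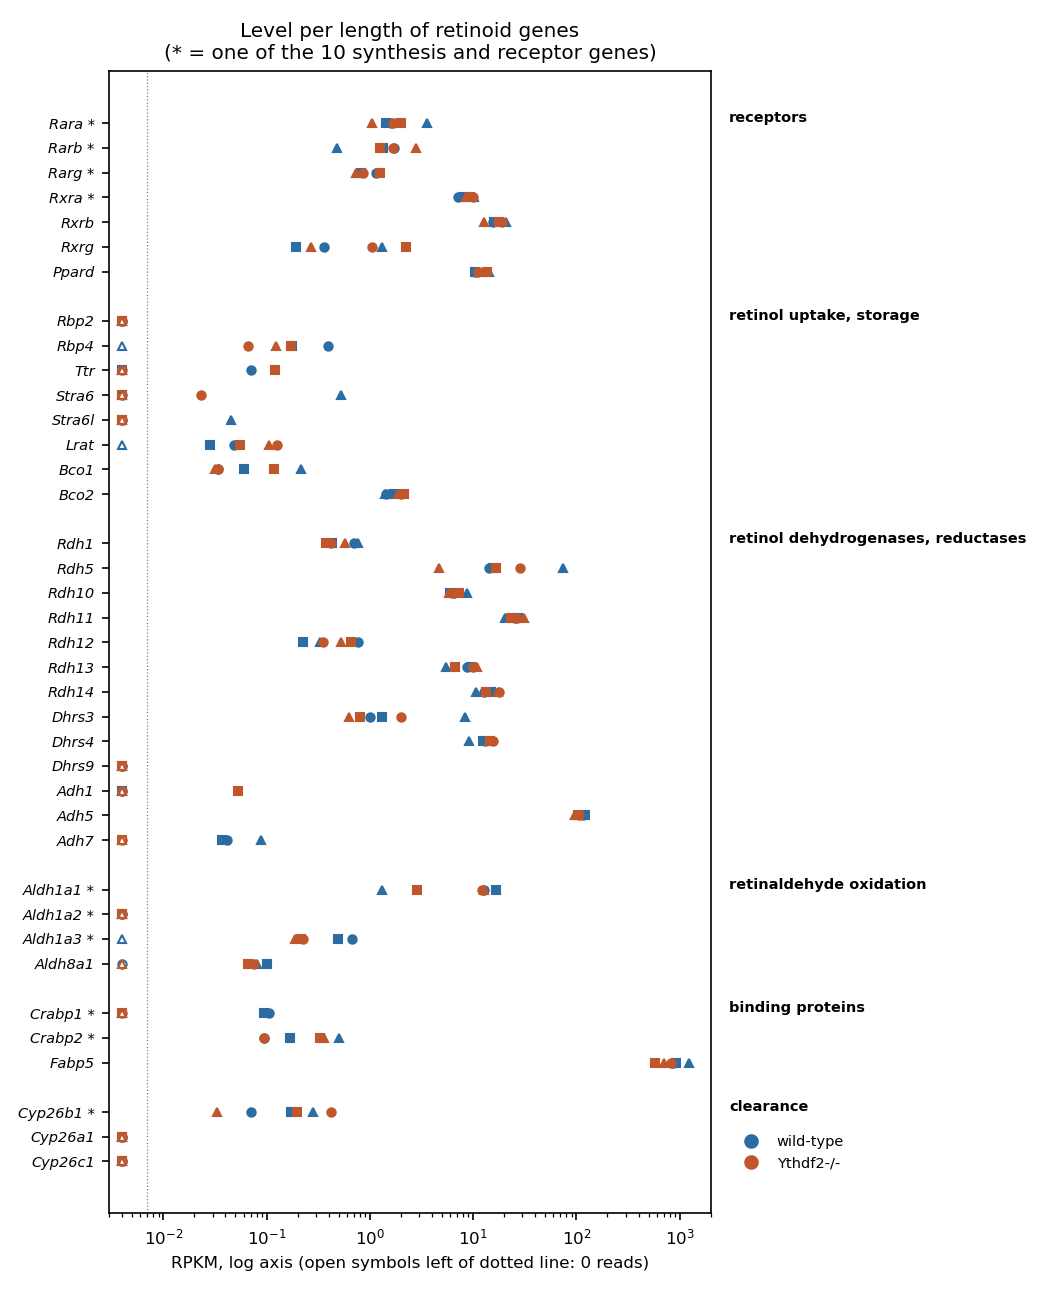
Level per length (RPKM, log axis) of the 10 genes (marked *) and other retinoid genes by role, with a symbol for each library (blue wild-type, orange Ythdf2-/-, shapes for replicates) and open symbols at the left edge for 0 reads. Fabp5 and Adh5 were the highest, and Aldh1a2, Cyp26a1 and Cyp26c1 had no read in any library.

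The wider pathway held 48 further genes, of which 27 were tested. Of these, 17 had a log2 fold change above 0 and 10 below 0, where 48.1% of all tested genes were above 0. None was called by edgeR at an adjusted p under 0.05, and 0 had an unadjusted p under 0.05. The median log2 fold change was 0.04, and 0.12 without wild-type replicate 3, beside a median over all genes of -0.01. Those with libraries that did not overlap were Fabp5, lower in Ythdf2-/- cells, and Bco2, Dhrs4 and Ncoa3, higher, which is 4 of 27 where 10.2% of all tested genes had no overlap.

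The steps before Aldh1a1 were well read. Of 13 retinol dehydrogenase and retinaldehyde reductase genes, 10 were tested, 5 with a log2 fold change above 0 and 5 below. Adh5, a formaldehyde dehydrogenase with weak retinol activity, had the most reads, at 188 ± 20.9 CPM in wild-type and 173 ± 7.41 CPM in Ythdf2-/- libraries (SD, n = 3 each). Rdh11 was next, at 75.5 ± 11.0 and 84.0 ± 11.9 CPM (SD, n = 3 each). Rdh10, the dehydrogenase that limits retinoic acid formation in the embryo, ran from 13.7 to 20.0 CPM in wild-type and from 13.5 to 16.9 CPM in Ythdf2-/- libraries, with a log2 fold change of -0.12 (SE 0.213), and 0.06 without wild-type replicate 3.

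Dhrs3, the reductase that turns retinaldehyde back into retinol and is itself a retinoic acid target, had 2.57, 3.35 and 21.5 CPM in wild-type and 5.20, 2.07 and 1.61 CPM in Ythdf2-/- libraries. Its log2 fold change of -1.62 (SE 0.941, adjusted p = 0.999 by edgeR) was the lowest of the list and rested on wild-type replicate 3, the library in which Aldh1a1 was lowest: without that library it was -0.01 (SE 0.542). Rdh5 was likewise highest there, at 95.0 CPM against 5.95 to 36.3 CPM in the other 5 libraries. Dhrs4 had the highest log2 fold change of the list, at 0.37 (SE 0.181) and 0.23 without wild-type replicate 3, from 21.5, 20.6 and 15.2 CPM to 25.9, 24.4 and 23.8 CPM.

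Genes for retinol uptake and storage were scarcely read. Of 9, only Bco2, a carotenoid-cleaving enzyme, was tested, at 3.53 ± 0.378 CPM in wild-type and 4.69 ± 0.344 CPM in Ythdf2-/- libraries (SD, n = 3 each). Its log2 fold change was 0.41 (SE 0.239). Stra6, the retinol transporter, had 21 reads in wild-type replicate 3 and at most 1 read in any other library. Aldh8a1, a further retinaldehyde oxidising enzyme, was at or below 0.229 CPM.

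Of the remaining receptor genes, all 3 were tested. Rxrb, another RAR partner, had 47.9 ± 8.34 CPM in wild-type and 45.9 ± 9.24 CPM in Ythdf2-/- libraries (SD, n = 3 each). Its log2 fold change was -0.06, and 0.09 without wild-type replicate 3. Per length it was above Rxra in each library. Ppard, a receptor for the ligand carried by Fabp5, was at 37.9 ± 7.12 and 39.0 ± 4.49 CPM (SD, n = 3 each). Rxrg was low and uneven, from 0.457 to 5.33 CPM, with a log2 fold change of 0.95 (SE 0.939), and 2.11 (SE 0.927, unadjusted p = 0.0629, adjusted p = 0.323 by edgeR) without wild-type replicate 3. All 9 coregulators were tested, 8 with a log2 fold change above 0. The corepressor Ncor1 had a log2 fold change of 0.10 (SE 0.184), the coactivator Ncoa3 had 0.25 (SE 0.131, unadjusted p = 0.0963) and the deacetylase Hdac3 had -0.09 (SE 0.119). Without wild-type replicate 3, Ncor1 was at 0.29 (unadjusted p = 0.0222, adjusted p = 0.241 by edgeR), in the fit in which 16.6% of all genes had an unadjusted p under 0.05.

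Of 15 known retinoic acid targets, 5 were tested and 5 had 0 reads in every library (Cyp26a1, Stra8, Hoxb1, Hoxd4 and Cdx1). Of the 5 tested, 2 had a log2 fold change above 0 and 3 below. The lowest was Dhrs3, described above, at -1.62, and -0.01 without wild-type replicate 3. Meis2 and Meis1, homeobox cofactors that respond to retinoic acid in limb and brain, had the most reads of the list, with log2 fold changes of -0.02 (SE 0.220) and -0.03 (SE 0.243). Nrip1, a corepressor that is induced by the ligand, had 0.22 (SE 0.176), and 0.38 (unadjusted p = 0.0232, adjusted p = 0.242 by edgeR) without wild-type replicate 3. Tgm2 was read at 0.643 to 2.81 CPM, with a log2 fold change of 0.01 (SE 0.675). Without wild-type replicate 3, Meis2 was at 0.11, Meis1 at -0.17 and Tgm2 at -0.24, each within 1 SE of 0.

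**Figure D5:**
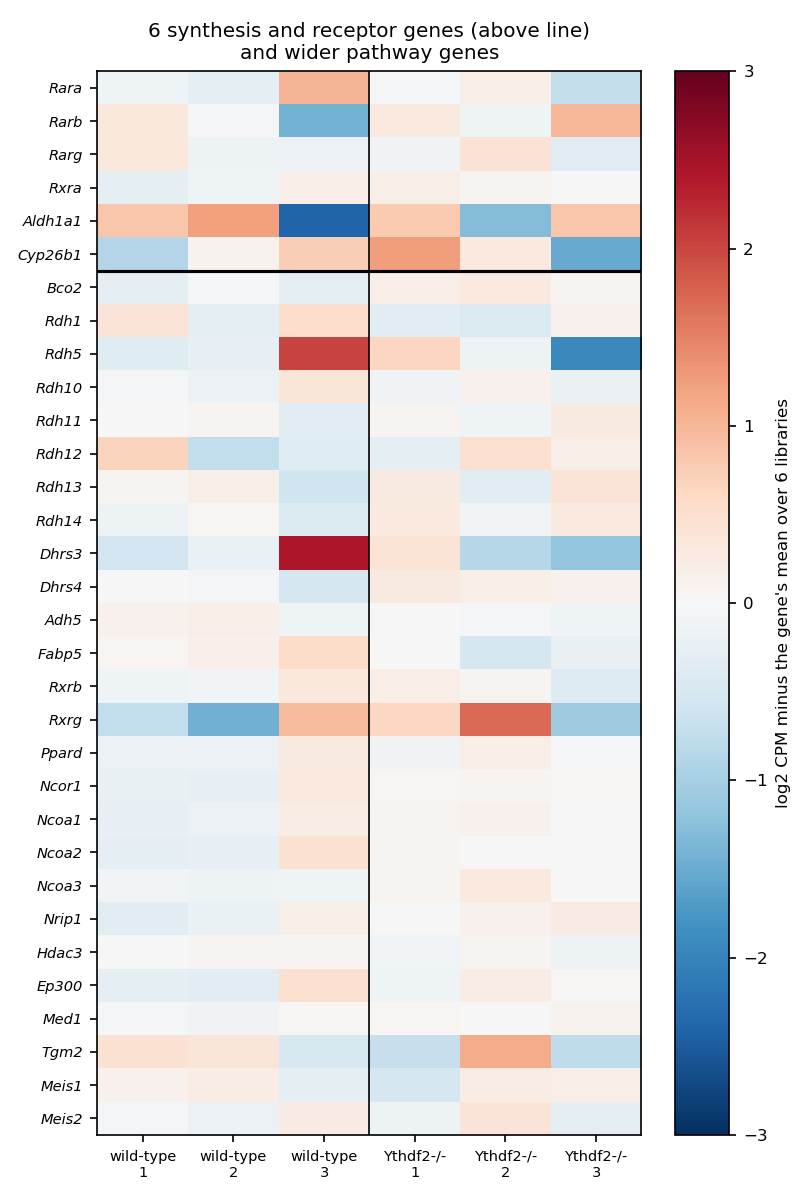
Log2 CPM of each gene minus its mean over the 6 libraries (colour scale from -3 to 3, red above and blue below the mean), for the 6 tested synthesis and receptor genes (above the line) and tested wider pathway genes. In wild-type replicate 3, Dhrs3 and Rdh5 are high and Aldh1a1 and Rarb are low, and the coregulators are pale in all libraries.

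Aldh1a1 varied most of the tested genes of the set (SD of log2 CPM 1.48 over 6 libraries). The tested genes with the pattern most like it, by the root mean square difference of mean-centred log2 CPM over the 6 libraries, were Hsd11b1 at 0.297, Kcnc4 at 0.309 and Pdzd3 at 0.343, where the median over genes was 1.38. Hsd11b1 had 57, 80 and 7 reads in wild-type and 45, 13 and 81 reads in Ythdf2-/- libraries. Like Aldh1a1, it was low in wild-type replicate 3 and Ythdf2-/- replicate 2.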

How the data were processed

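The authors sequenced fragmented mRNA (stranded TruSeq kit) and deposited, per library, raw counts (whole reads per gene, not normalized) and a table of expected counts, TPM and FPKM. The submitters' processing notes name Bowtie2 2.2.9, RSEM 1.2.15, featureCounts and mm10, while the methods name TopHat and Cuffnorm. The deposited expected counts summed to 1.97% to 2.40% of the raw counts, so FPKM served only as an alternative, and the deposited TPM was not used. Groups came from the labels of the 6 input libraries.

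Raw counts were tested with edgeR 4.0.16 in R 4.3.3 (filterByExpr, TMM, glmQLFit with the robust option, genotype as the only term, Benjamini-Hochberg over all 13112 genes, threshold 0.05). DESeq2 1.42.0, limma 3.58.1 and other filters, scalings and terms were alternatives. CPM is TMM-scaled, log2 CPM used a prior count of 2, and a count of 0 was read as up to 3 counts. RPKM used the union of RefSeq exons. Scripts were tested on simulated data. Sequences and plots used Python 3.11.15 (pandas 2.3.3, numpy 2.4.6, matplotlib 3.10.9).

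The 10 genes and all lists were chosen with earlier results of these data known. Named genes are these 10, Ythdf2, any wider gene called, in each wider list the 2 of highest mean CPM and the tested genes of highest and lowest log2 fold change, the 3 most like the most variable of the 10, and markers. Other genes were named after their values were seen. A few genes that this rule names are not reported here, and remain in the counts. Totals of 11029827 to 13185778 counts leave genes near 1 CPM with about 10 reads.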

Additional observations from a re-analysis of the deposited data

How the results depend on the processing

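No gene of the set and no wider pathway gene that an alternative tested was called under any of the 19. Rara and Rarb were tested in all 19, Rarg and Rxra in 17, Aldh1a1 in 16, Cyp26b1 in 15, Aldh1a3 in 5, Crabp1 and Crabp2 in 1 (no filter) and Aldh1a2 in 0. The number of genes called over all genes, 0 in edgeR with TMM, was 1 with DESeq2's size factors, 1 with no filter, 1 with at least 10 counts in every library, 31 with DESeq2 (6 higher and 25 lower), 632 with limma-voom sample quality weights (333 higher and 299 lower), 13 with the term for Y-linked reads, and 2, 1 and 2 on log2 FPKM with a pseudocount of 1, of 0.1, and of 1 without the filter. Leaving out 1 library gave 0 to 2. An unadjusted p under 0.05 was reached by 0 of the 10 genes in the reported fit, 1 with quality weights (Rxra, 0.32, adjusted p = 0.0761 by limma), 2 with the Y-linked term (Rara and Rarb), and 0 to 2 without 1 library (Rxra and Aldh1a3 without wild-type replicate 3, where Aldh1a3 passed the filter only through the wild-type libraries in which it was high).

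The sign of the log2 fold change turned for 4 genes, and the cause was not tested. Aldh1a1 was at 0.13 with limma-voom, 0.11 with the replicate block, 1.04 with the Y-linked term and -0.67 to 0.40 without 1 library. Cyp26b1 was at -0.066 with limma-voom, -0.49 with the Y-linked term and -0.56 to 0.81 without 1 library. Rara was at 0.045 with quality weights and -0.72 to 0.058 without 1 library, and its lowest value over all alternatives was -0.93, on deposited FPKM. Rarg was at -0.13 with quality weights, -0.021 with the Y-linked term, -0.64 on log2(FPKM + 1) without the filter and -0.22 to 0.22 without 1 library. The FPKM value of Rarg rests on 2 expected counts in all, both in wild-type replicate 3. Rarb ran from 0.27 to 1.19 and Rxra from 0.04 to 0.32. With a prior count of 0.5 in place of 2, the difference in mean log2 CPM of Crabp1, from 2 reads in all, went from -0.39 to -1.05. That of Aldh1a3 turned from -0.045 to 0.46 and that of Cyp26b1 from 0.017 to -0.058, both by less than the spread between replicates. The direction for Aldh1a3, with 0 reads in wild-type replicate 3, thus depended on the scale.

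Deviations from the mean of each genotype's own libraries had correlations of -0.25, -0.24 and -0.39 across genes between same-numbered libraries. Such deviations are tied to each other within a genotype, so they cannot tell whether the numbers pair the samples. With the replicate block 0 genes were called and 183 had an unadjusted p under 0.05, against 476 without it. By deviation from the genotype mean, wild-type replicates 1 and 2 correlated best with Ythdf2-/- replicate 3 (0.35 and 0.40). This is not a likeness of whole libraries. Crabp1 and Crabp2, at 0 to 5 reads per library, are limited by depth. Cyp26b1 had 2 to 24 and Aldh1a1 43 to 664 reads, and each spread widely between libraries of 1 genotype.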

Other observations

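Since Ythdf2 binds m6A, the transcripts of the 10 genes (GENCODE M21, 1 transcript a gene) were searched on the sense strand for GGACT, one form of the m6A consensus. Rara held 9 matches in 3384 bases (2.66 per kilobase), a density above that of 96.8% of 12288 tested genes. Rxra held 8 (1.63 per kilobase, above 79.8%), and Rarb, Rarg, Aldh1a1, Aldh1a2, Aldh1a3, Crabp2 and Cyp26b1 held 1 to 4 each, at 0.581 to 1.07 per kilobase. Crabp1 held 0. The median was 1.04 per kilobase, and 93.4% of these genes held the motif. A match is not a measured m6A site, and the precipitated samples are not analysed here.

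The deposited expected counts gave other values for the same genes. Aldh1a1, at 43 to 664 raw reads per library, was listed at 0 expected counts in all 6. Rxra, at 454 to 683 raw reads, was listed at 0 or 1. Rara was listed at 9.46, 29.3 and 20.6 expected counts in wild-type and 12.5, 8.42 and 7.75 in Ythdf2-/- libraries, with wild-type replicate 2 rather than 3 the highest. In those tables Rarb was at 5, 7.72 and 8.50 expected counts in wild-type and 5.10, 11.1 and 9.12 in Ythdf2-/- libraries, so wild-type replicate 3, lowest for Rarb in the raw counts, was not the lowest there.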
